A study of Rattus norvegicus with 18 samples.

Results

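Kidneys of rats given adenine together with SZ-A (group SZ) were compared with kidneys of rats given adenine alone (group CKD), across every gene with a measurable transcript. A gene was kept when 6 or more of the 18 libraries had an FPKM of 1 or higher (fragments per kilobase of gene, scaled to library size, the deposited unit), and 13851 of the 32116 genes in the table met this rule. The comparison rests on 12 of the 18 libraries: 6 SZ libraries, from rats on 100 mg of adenine and 300 mg of SZ-A per kg and day, and 6 CKD libraries, from rats on the same adenine dose. A further 6 libraries from untreated rats (group NC) give the level without adenine and enter the shared estimate of the spread. For genes with less spread in NC, this tends to make the SE and p-values smaller than SZ and CKD alone would give. The labels name the tissue and treatments, do not spell out the name SZ-A, and give no strain, sex, age or treatment length. Nor do they tie each library to an animal of its own, so the p-values rest on library-to-library spread, part of which may be technical.

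Adenine in excess is oxidised to a poorly soluble product that forms crystals in the tubules, and the injured tubules then lose transporters and metabolic enzymes while inflammatory cells and matrix build up around them. The proximal tubule is the segment that takes back most filtered solute and secretes organic anions, and it runs largely on fatty acid oxidation in its mitochondria. Macrophages, fibroblasts and the cytokines that recruit and activate them are the usual markers of the interstitial reaction in this model. The measurements are from whole kidney, so fewer cells of a type and less RNA per cell cannot be told apart in any value below.

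The libraries within a group were not alike. Recovered reads ranged from 15354358 to 18532375 per library. The first principal component, with 55.0% of the variance, spread CKD from 8.94 (CKD 1) to 84.0 (CKD 5) and SZ from -12.1 (SZ 4) to 28.4 (SZ 3). CKD 1 therefore lay inside the SZ range, and SZ 3 lay between CKD 1 and the other CKD libraries. The SD of the median gene was 0.315 in CKD, 0.239 in SZ and 0.181 in NC on the log2(FPKM + 1) scale, and the SD was larger in CKD than in SZ for 72.1% of genes. In CKD 5, SZ 3 and CKD 2 long transcripts were low relative to short ones, by slopes of -0.312, -0.248 and -0.211 (log2 level for each doubling in length), so the main counts below are also given without those 3 libraries. The 7 urothelium markers were near 0, with a summed level of at most 0.819 FPKM in any library.

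**Figure D1:**
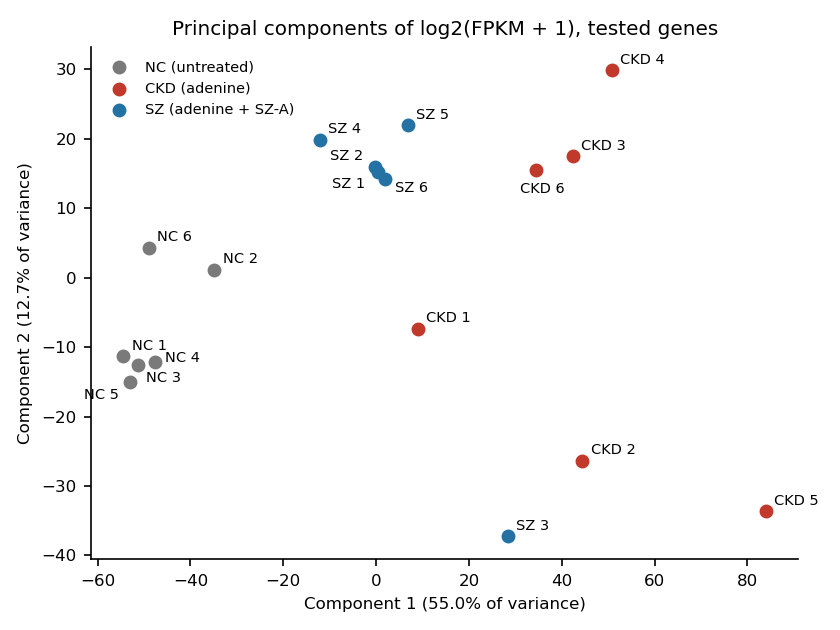
First against second principal component of log2(FPKM + 1) over 13851 genes, 1 point per library, with the share of variance on each axis. CKD 1 sits within the SZ range on the first component, and SZ 3 sits low on the second component beside CKD 2 and CKD 5.

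With limma across all 18 libraries, 1521 of 13851 genes (11.0%) differed between SZ and CKD at a Benjamini-Hochberg adjusted p under 0.05. Of these, 576 (4.16%) were higher and 945 (6.82%) lower in SZ. With only the 12 SZ and CKD libraries in the fit the counts were 143 higher and 411 lower (554 in all, of which 540 were among the 1521), and with libraries weighted by quality 1279 higher and 1551 lower. Of the 1521 genes, 515 stayed called in each of the 12 fits that leave out 1 SZ or CKD library. Changes of at least 1 log2 unit numbered 98 upward and 199 downward, against a median absolute difference of 0.21 over all genes. The median difference over all genes was 0.0055. Without CKD 2, CKD 5 and SZ 3 the counts were 674 higher and 804 lower, and 1027 of the 1521 genes stayed called. The balance of directions depended on scaling. The deposited FPKM gave 37.9% of called genes as higher; plain library totals moved the median gene to -0.103 and gave 382 higher and 1752 lower, and TPM scaling moved it to -0.12 and gave 289 higher and 1702 lower. The removal of 1 library took the count of 1521 to 533 without SZ 4, 669 without CKD 5, 831 without SZ 1, 850 without SZ 2, 1010 without CKD 3, 2798 without CKD 1 and 3058 without SZ 3.

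**Figure D2:**
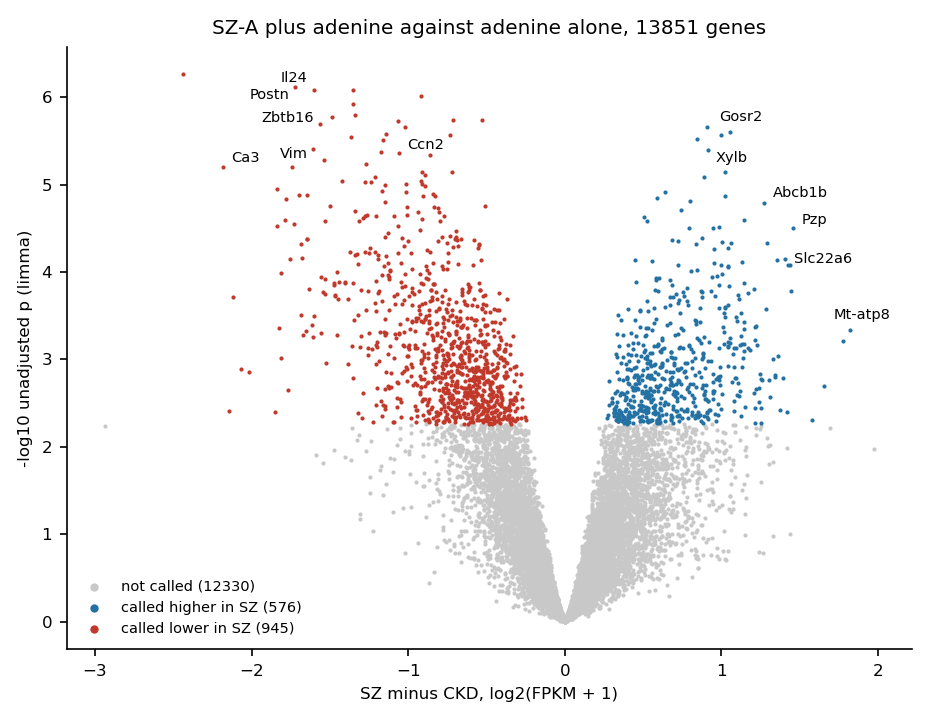
SZ minus CKD on the log2(FPKM + 1) scale against -log10 of the unadjusted limma p, 1 point per gene, for 13851 genes. Called genes are coloured by direction, with 945 lower on the left and 576 higher on the right.

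Complete separation of the groups was rarer than a call. All 6 SZ libraries lay above all 6 CKD libraries in 87 genes (0.628%) and below all of them in 226 (1.63%). Among called genes the ranges stayed apart in 74 higher and 203 lower genes and overlapped in 502 and 742. In the 742 lower genes with overlap, CKD 1 was the CKD library nearest to SZ in 459 and SZ 3 the SZ library nearest to CKD in 455. In the 502 higher genes, the counts were 338 and 255. When genes were split by mean FPKM into 4 equal sets, in the least abundant set 2.11% were called higher and 5.02% lower, and in the most abundant set 7.77% and 7.45%.

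Abcb1b, a drug efflux pump of the P-glycoprotein family, ran from 0.372 through 1.45 to 2.65 FPKM (lowest, median, highest) in CKD, from 3.37 through 4.64 to 7.11 in SZ and from 2.82 through 3.79 to 7.15 in NC. The SZ libraries overlapped NC and not CKD. The difference was 1.27 ± 0.221 on the log2(FPKM + 1) scale (SE, n = 6 per group, adjusted p = 0.0038, limma), the scale of all differences below.

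Xylb, a kinase that phosphorylates xylulose, ran from 34.2 through 39.7 to 53.7 FPKM in CKD and from 59.3 through 81.3 to 108 in SZ. It rose by 0.91 ± 0.142 (SE, adjusted p = 0.00241) without overlap. Gosr2, a SNARE protein of transport through the Golgi, ran from 35.9 through 48 to 67.9 FPKM in CKD and from 76.6 through 90.5 to 109 in SZ, a rise of 0.91 ± 0.135 (adjusted p = 0.00207). The NC libraries had 71.2 to 96.3 FPKM of Gosr2 and 94.5 to 111 of Xylb.

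Pzp, an alpha-2-macroglobulin family protease inhibitor, had the largest rise among called genes with separated ranges, 1.46 ± 0.268 (adjusted p = 0.00489). It had 7.04 to 29.6 FPKM in CKD and 40.8 to 68.9 in SZ. Slc39a8, a zinc and manganese importer, rose by 0.93 ± 0.199 (adjusted p = 0.00976), with 5.49 to 14.7 FPKM in CKD, 16.1 to 20.9 in SZ and 21.4 to 45.4 in NC. Alpl, tissue-nonspecific alkaline phosphatase, rose by 1.02 ± 0.232 (adjusted p = 0.0131), from a CKD median of 79.5 to an SZ median of 135 FPKM.

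The other large rises with separated ranges were Dusp15 (1.44), a phosphatase, Prima1 (1.29), the membrane anchor of acetylcholinesterase, Paqr7 (1.15), a membrane progestin receptor, Vill (1.06), a villin-like protein, Glyctk (1.02), glycerate kinase, Pnpla3 (1.02), a lipid hydrolase, Slc25a42 (0.89), a mitochondrial coenzyme A carrier, and Cdhr2 (0.88), a cadherin of microvilli. All of these stayed called when any 1 of the 12 SZ and CKD libraries was left out, as did Abcb1b, Xylb, Gosr2, Pzp, Slc39a8 and Alpl. In mRatBN7.2 coordinates, Gosr2 lies at chr10:88586299-88605625, Xylb at chr8:119096029-119128848 and Abcb1b at chr4:25158362-25442709.

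**Figure D3:**
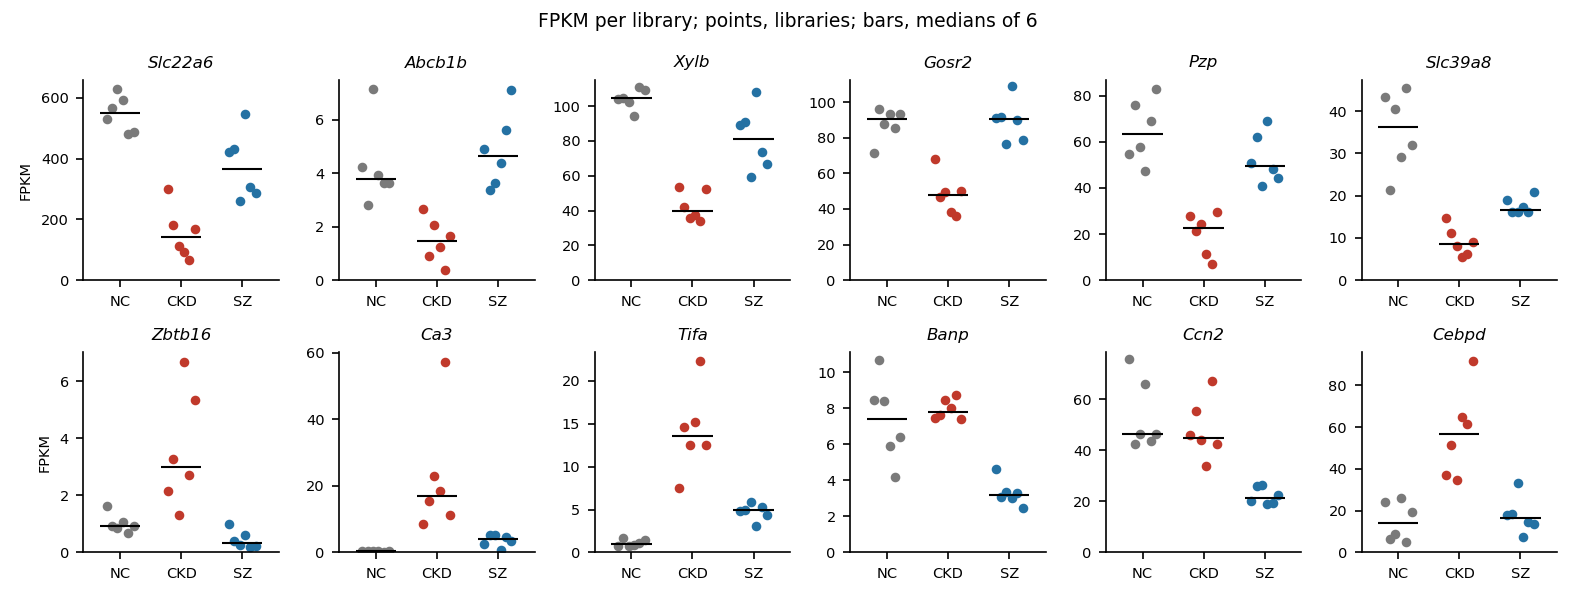
FPKM in each library for 12 genes, linear axes from 0, with 1 point per library and a bar at the median of 6. SZ points lie above CKD points for Abcb1b, Xylb, Gosr2, Pzp and Slc39a8, with overlap for Slc22a6, and below them for Zbtb16, Ca3, Tifa, Banp, Ccn2 and Cebpd.

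Proximal tubule transporters had the highest median of any list with at least 8 tested members. Of 27 tested, 12 rose and 0 fell (median 0.85, against 0.0055 over all genes). Over all genes 4.16% were called higher and 6.82% lower, the shares beside which each list count below stands. Slc22a6, the basolateral organic anion transporter OAT1, ran from 65.7 through 141 to 301 FPKM in CKD, with CKD 1 the highest, and from 262 through 364 to 548 in SZ, with overlap. It rose by 1.41 ± 0.278 (SE, adjusted p = 0.00704). Its relative Slc22a8 (OAT3) rose by 1.36 ± 0.345 (adjusted p = 0.0202) and lost its call without SZ 4.

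The urate exchanger Slc22a12 (1.26), the dicarboxylate carriers Slc13a2 (1.12) and Slc13a3 (1.04), the water channel Aqp1 (0.88) and the phosphate carrier Slc34a1 (0.99) also rose. So did both parts of the protein uptake receptor, Lrp2 (megalin, 1.09 ± 0.248) and Cubn (cubilin, 0.82 ± 0.226). Glucose carriers did not pass: Slc5a2 had 0.53 (adjusted p = 0.288) and Slc2a2 -0.09 (adjusted p = 0.845). The summed level of the 28 listed genes found was 1783 to 4629 FPKM in CKD, 5042 to 5989 in SZ and 6429.9 to 8675 in NC, with no overlap between any pair of groups. Without CKD 2, CKD 5 and SZ 3, 10 of the 27 were called, and the count was 2 without SZ 4.

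Most listed regulators of regeneration and nephron identity lay in the same direction, 16 above 0 and 3 below. Of 19 tested, 6 rose and 0 fell, with a median of 0.55. Hnf4a, a nuclear receptor that drives transporter genes in the proximal tubule, rose by 0.84 ± 0.195 (adjusted p = 0.014), and the NC libraries had 184 to 205 FPKM. It ran from 38.5 through 76.8 to 132 FPKM in CKD and from 119 through 131 to 166 in SZ, and it stayed called without any 1 of the 12 libraries.

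Ppara, the fatty acid sensing nuclear receptor, rose by 1.22 ± 0.386 (adjusted p = 0.0488), but lost its call without CKD 2, CKD 3, CKD 4, CKD 5, CKD 6, SZ 1, SZ 2, SZ 4, SZ 5 or SZ 6. Nr1h4, the bile acid receptor FXR, rose by 0.68, Tfap2b, a distal nephron factor, by 0.53, and Esrra, a regulator of mitochondrial genes, by 0.44. Pax8 had -0.09 and did not pass. The count of 6 was 5 without CKD 2, CKD 5 and SZ 3. It was 3 under TPM scaling and under plain totals. Single libraries took it to 2 without CKD 5 or SZ 4, 3 without CKD 3, SZ 1, SZ 5 or SZ 6, 11 without CKD 1 and 13 without SZ 3.

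Metabolic enzymes of the tubule rose as well. In amino acid and one-carbon metabolism, 12 of 24 tested genes rose and 0 fell (median 0.71). Dmgdh and Sardh, the mitochondrial dehydrogenases that break down dimethylglycine and sarcosine, rose by 1.13 and 0.67. Tyrosine breakdown rose at Hgd (1.04) and Fah (0.71), and arginine synthesis rose at Ass1 (0.74) and Asl (0.74).

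Hgd, homogentisate dioxygenase, ran from 43.4 through 72 to 146 FPKM in CKD, with CKD 1 the highest, and from 129.7 through 139 to 199.6 in SZ, with overlap, and its adjusted p was 0.0112. The count of 12 was 8 without CKD 2, CKD 5 and SZ 3. It was 5 without SZ 4, 6 without CKD 3 or CKD 5 and 7 without CKD 4, SZ 1 or SZ 2.

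In fatty acid oxidation, 9 of 32 tested genes rose and 0 fell (median 0.47). The largest rise was in Ehhadh, a peroxisomal enzyme (1.39 ± 0.379, adjusted p = 0.0267). Ehhadh ran from 8.4 through 47.2 to 74.4 FPKM in CKD, from 68.4 through 89.9 to 141 in SZ and from 136 through 147 to 260.4 in NC. Carnitine-dependent import and export rose at Cpt1a (0.73), Cpt2 (0.55) and Crat (0.44), whereas the carnitine carrier Slc25a20 had 0.10 and did not pass. Ehhadh lost its call without CKD 4, SZ 1, SZ 2 or SZ 4. The count of 9 was 7 without CKD 2, CKD 5 and SZ 3 and 14 after the length correction. It was 2 without SZ 4, 5 without CKD 4, SZ 1 or SZ 2, 15 without CKD 2 and 21 without CKD 1.

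Genes of the respiratory chain were called at rates not far from the 4.16% called higher over all genes. Of 13 mitochondrially encoded mRNAs, 1 rose, Mt-atp8, a subunit of ATP synthase, by 1.82 ± 0.43 (adjusted p = 0.0151). Mt-atp8 overlaps Mt-atp6, so reads could be split between them, and Mt-atp6 had 0.64 without a call. The list median was 0.66, and 6 of 13 rose without CKD 2, CKD 5 and SZ 3 and 5 after a correction for gene length, 3 did under TPM scaling and 2 under plain totals; the count was 4 without CKD 2 and 5 without CKD 1 or SZ 3. Among 27 nuclear oxidative phosphorylation genes only Uqcrc2, a core protein of complex III, rose (0.50), with a list median of 0.10 that turned to -0.04 under TPM scaling and -0.02 under plain totals. The count of 1 was 0 without CKD 2, CKD 5 and SZ 3, under TPM scaling and under plain totals, and 2 after the length correction. It was 0 without NC 1, NC 2, NC 3, NC 4, NC 5, NC 6, CKD 3, CKD 4, CKD 5, SZ 1, SZ 2, SZ 4, SZ 5 or SZ 6, 2 without CKD 6, 3 without CKD 2 or SZ 3 and 5 without CKD 1.

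Segments beyond the proximal tubule changed in a few genes. In the collecting duct, 4 of 15 tested rose and 0 fell (median 0.49), and all 4 belong to acid and base transport of intercalated cells: the band 3 exchanger Slc4a1 (1.13), the bicarbonate transporter Slc4a9 (1.11), pendrin Slc26a4 (0.90) and the proton pump subunit Atp6v1b1 (0.84). Atp6v0d2, Atp6v1g3 and Foxi1, listed genes of the same cells, were not among the 4. Slc4a1 lost its call without SZ 4. Slc4a1 is also an erythrocyte gene, and the haemoglobin gene Hba-a2 rose by 1.10. The part of blood in the Slc4a1 value was not tested. Slc4a9 ran from 3.75 through 5.1 to 9.9 FPKM in CKD and from 8.15 through 14.1 to 19.2 in SZ. Aqp2, the water channel of principal cells, had -0.18 (adjusted p = 0.761). The count of 4 was 2 without CKD 2, CKD 5 and SZ 3, and 1 without SZ 4, 2 without CKD 3, CKD 4, CKD 5, SZ 1 or SZ 2 and 7 without SZ 3.

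Among markers of Henle's loop and the distal tubule, 3 of 19 rose and 0 fell, and the risers included Kcnj16 (0.89), a potassium channel, and Bsnd (0.72), the barttin subunit of chloride channels. The count was 2 without CKD 2, CKD 5 and SZ 3, and 0 without CKD 3, CKD 5, SZ 1 or SZ 4, 1 without CKD 4 or SZ 2, 6 without CKD 1 and 9 without SZ 3. Umod, the urinary protein uromodulin, had -0.04 ± 0.347 (adjusted p = 0.958), with 99.3 to 399 FPKM in CKD, 153 to 278 in SZ and 339.9 to 1369 in NC, and its sign was positive without CKD 1, CKD 3, CKD 4, SZ 1 or SZ 4. Egf, the growth factor of the distal tubule, had 1.31 ± 0.454 and did not pass (adjusted p = 0.0666). It ran from 3.64 through 14.8 to 88.4 FPKM in CKD, where CKD 1 was the highest, and from 23.7 through 42.8 to 60.7 in SZ, while NC had 332 to 550.2.

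**Figure D4:**
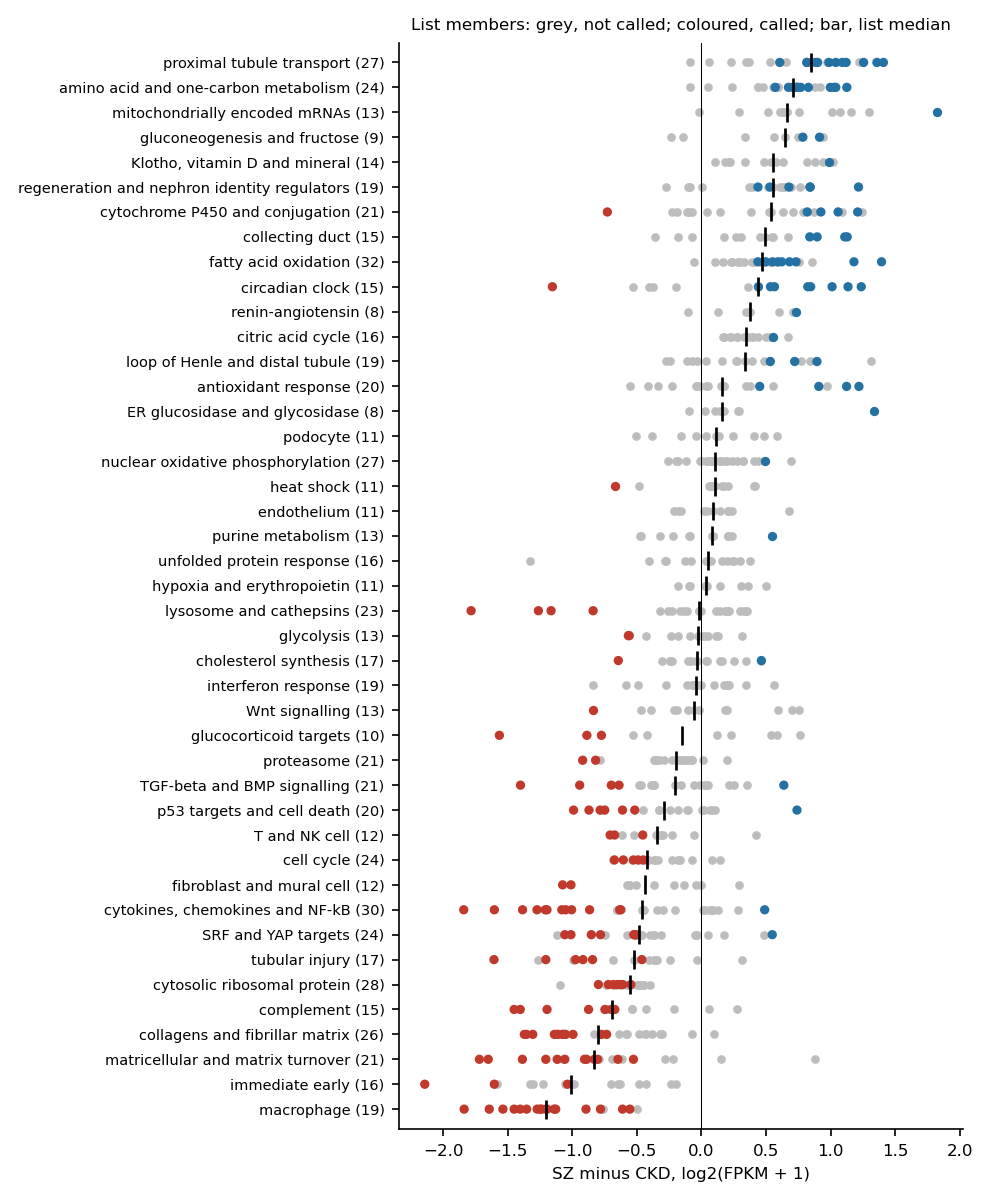
SZ minus CKD on the log2(FPKM + 1) scale for the tested members of every gene list with at least 8 tested genes, 1 point per gene, coloured where called, with a bar at each list's median and the number tested in brackets. Medians run from macrophage genes at -1.20 to proximal tubule transporters at 0.85.

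On the lower side, Ca3, a carbonic anhydrase best known from muscle and fat, had the largest fall with separated ranges, -2.18 ± 0.351 (SE). Ca3 met the filter only with its levels in CKD, so its p-value is left out. It ran from 8.61 through 17 to 57.3 FPKM in CKD, where CKD 5 was the highest, from 0.745 through 4.14 to 5.18 in SZ, and had 0.216 to 0.433 in NC. The SE draws on all 3 groups, and the SD of Ca3 on the log2(FPKM + 1) scale was 0.0849 in NC, 0.909 in CKD and 0.709 in SZ. Of 5 tested adipocyte genes, Cfd (-1.81) and Fabp4 (-1.77) fell too. The other 3, among them Adipoq (0.12), lay above 0 and did not pass. The part of fat in the Ca3 value was not tested. Cfd lost its call without SZ 4, and Fabp4 without CKD 4, CKD 5, SZ 1, SZ 2, SZ 4 or SZ 6.

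Twist2 (-1.74), a mesenchymal helix-loop-helix factor, Vim (-1.61), the intermediate filament of mesenchyme and injured tubule, Pdlim4 (-1.45), an actin-associated protein, and Fibin (-1.36), a secreted protein, fell without overlap. Vim ran from 204 through 378 to 639.8 FPKM in CKD and from 72.8 through 106 to 198 in SZ, and NC had 30.1 to 48.3. Tifa, an adaptor that carries innate immune signals to NF-kB, ran from 7.54 through 13.6 to 22.3 FPKM in CKD and from 3.13 through 4.9 to 5.86 in SZ, a difference of -1.35 ± 0.187 (adjusted p = 0.00207). Ccl17 (-1.49), a T cell chemokine, Fcgr2b (-1.42), the inhibitory Fc receptor, Ms4a4a (-1.36), a macrophage membrane protein, and Samsn1 (-0.92), a lymphoid adaptor, fell in the same way. All of these, with Ca3, stayed called without any 1 of the 12 SZ and CKD libraries. Like Ca3, the genes Twist2, Fibin, Ccl17 and Ms4a4a met the filter only with their levels in CKD. Their calls and separation are therefore not independent of the filter.

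Macrophage markers fell in 17 of 19 tested, with 0 rising, and none of the listed genes was at 0 in every library. Their summed level was 1359 to 3090.3 FPKM in CKD, 548 to 1267 in SZ and 138 to 272 in NC, with no overlap between groups. The transcription factor Spi1, which defines the myeloid lineage, fell by 1.00 ± 0.248 (adjusted p = 0.0184), and lost its call without SZ 4. The T and NK cell list had 3 of 12 lower, Cd3e, Cd3d and Cd5, 0 of 12 without CKD 2, CKD 5 and SZ 3, and 5 of 12 under TPM scaling and under plain totals; the count was 0 without CKD 5, SZ 1 or SZ 4, 1 without NC 1, NC 3, NC 4, NC 5, NC 6, CKD 2, CKD 3, CKD 6, SZ 2, SZ 5 or SZ 6 and 7 without CKD 1. The complement list had 7 of 15 lower and 0 higher (median -0.70), and 4 lower without CKD 2, CKD 5 and SZ 3. Its count was 3 without CKD 3, CKD 5, SZ 4, SZ 5 or SZ 6, 4 without NC 3, NC 4, NC 5, CKD 2, CKD 4, CKD 6 or SZ 1 and 9 without CKD 1. C1qa and C1qb are on both the complement and the macrophage list. The part of cell content in the falls of cytokine, complement and matrix genes was not tested.

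Among 30 tested genes for cytokines, chemokines and NF-kB, 12 fell and 1 rose (median -0.46). The falls held the interleukins Il19, Il24 and Il1b, the neutrophil chemokines Cxcl1 (-1.21) and Cxcl2 (-1.27), the monocyte chemokines Ccl2, Ccl3 and Ccl7 with the receptor Ccr2, the receptor antagonist Il1rn (-1.39), and Nfkbia (-0.87), the inhibitor that NF-kB itself induces. The single rise was Cx3cl1 (0.49), fractalkine, which was not called under TPM scaling, under plain totals or without CKD 2, CKD 5 and SZ 3. Cxcl1 ran from 2.29 through 5.15 to 9.28 FPKM in CKD and from 0.408 through 2.05 to 2.44 in SZ. Nfkbia ran from 28.4 through 36.5 to 70.8 in CKD and from 16.7 through 22.2 to 29.7 in SZ, and was called in 3 of the 12 leave-one-out fits, being lost without CKD 2, CKD 4, CKD 5, CKD 6, SZ 1, SZ 2, SZ 4, SZ 5 or SZ 6. Cxcl1 and Cxcl2 are close paralogs, so some of their reads may be shared.

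The letters upstream of these genes are shown because a shared motif is what a reader would look for in genes that fall together. In the 250 bases before the start (RefSeq, GRCr8, both strands searched, overlapping matches merged), an NF-kB consensus matched 8 of the 22 tested list members with a promoter entry, 3 of the 9 that fell among them, and 3.54% of all 33465 windows. The list was drawn up to hold NF-kB genes, so its share and that of all windows do not come from like sets of genes. The matched share was not higher among the members that fell than among all tested members. The pairing of motifs with lists was made after values and some promoter letters had been seen, and a match is a description of letters. Here and below, a gene with several listed starts counted as matched if any of its windows did, so shares of genes and of windows are unlike measures. Capitals mark the match, 84, 74 and 31 bases before the start in Cxcl1 (chr14:17479322-17479571, minus strand), Cxcl2 (chr14:17467256-17467505, minus strand) and Nfkbia (chr6:78597073-78597322, minus strand), the 3 members that fell and held one.
Cxcl1: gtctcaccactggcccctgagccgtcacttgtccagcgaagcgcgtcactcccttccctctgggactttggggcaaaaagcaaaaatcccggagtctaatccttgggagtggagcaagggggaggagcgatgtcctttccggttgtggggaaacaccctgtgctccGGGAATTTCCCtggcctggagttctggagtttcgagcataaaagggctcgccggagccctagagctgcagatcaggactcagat
Cxcl2: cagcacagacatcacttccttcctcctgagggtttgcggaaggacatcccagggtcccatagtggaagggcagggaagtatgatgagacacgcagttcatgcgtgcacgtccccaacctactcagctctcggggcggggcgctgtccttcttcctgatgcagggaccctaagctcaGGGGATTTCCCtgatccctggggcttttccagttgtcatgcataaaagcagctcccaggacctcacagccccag
Nfkbia: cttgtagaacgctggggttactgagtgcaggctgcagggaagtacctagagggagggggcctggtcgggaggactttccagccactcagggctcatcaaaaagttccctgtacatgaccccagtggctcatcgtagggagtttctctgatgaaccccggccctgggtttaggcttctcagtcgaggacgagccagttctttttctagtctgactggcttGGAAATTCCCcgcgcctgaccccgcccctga

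Genes driven by SRF and YAP, which couple tension of the actin skeleton to transcription, fell in 8 of 24 and rose in 1 (median -0.49). Ccn2, a matricellular growth factor, had -1.06 ± 0.166 (adjusted p = 0.00242). It ran from 34 through 44.9 to 67.2 FPKM in CKD and from 18.8 through 21.3 to 26.4 in SZ, and NC had 42.5 to 75.6. All SZ libraries were thus below all libraries of both other groups. Cnn2 (-0.85) and Fhl2 (-0.78), actin-linked proteins, and the tropomyosins Tpm1 (-0.51) and Tpm4 (-0.52) fell, Nt5e (0.55), an adenosine-producing ectoenzyme, rose, and Ccn1 (-1.12, adjusted p = 0.0792) did not pass. The count of 8 was 6 without CKD 2, CKD 5 and SZ 3, and 3 without SZ 4, 4 without SZ 1 and 5 without CKD 5 or SZ 5. Nt5e was not called without CKD 2, CKD 5 and SZ 3, under TPM scaling or under plain totals.

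A TEAD motif, GGAATG, the site type through which YAP acts, occurred in 10 of the 18 tested members with a promoter entry, in 5 of the 7 that fell (Ccn2, Ajuba, Fhl2, Tagln2 and Tpm1), and in 12.1% of all windows. Members were listed as SRF or YAP targets, so these shares do not come from like sets of genes. Ccn2 held 3 matches, at 166, 101 and 92 bases before its start (chr1:22624615-22624864, minus strand), and 0.0777% of windows held 3 or more. It is printed because it had the largest fall among the called members of this list.
Ccn2: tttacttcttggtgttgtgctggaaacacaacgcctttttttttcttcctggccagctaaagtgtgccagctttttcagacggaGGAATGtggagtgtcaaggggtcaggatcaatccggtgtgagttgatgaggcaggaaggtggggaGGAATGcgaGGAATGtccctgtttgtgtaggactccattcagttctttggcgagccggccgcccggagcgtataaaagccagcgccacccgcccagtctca

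A position of SZ outside both other groups was rare. The SZ range lay below both the NC and the CKD ranges in 7 genes, of which 6 were called, and above both in 0 genes. Besides Ccn2 these were Dnajb1, an HSP40 cochaperone (-0.67 ± 0.165, adjusted p = 0.0182), with 18.1 to 26.2 FPKM in SZ, 26.4 to 44.5 in CKD and 30.2 to 63.8 in NC, Rbm5, a splicing factor (-0.37), and Flvcr1, a haem exporter, which was not called (-0.37, adjusted p = 0.0504). The others were the Ensembl entries ENSRNOG00000056135 (-1.15), ENSRNOG00000008548 (-0.43) and ENSRNOG00000006871 (-0.38), which carry no symbol in the table. ENSRNOG00000056135, given a transcription factor family in the table and located on chromosome X, ran from 20.4 through 30.3 to 40.6 FPKM in CKD, from 9.18 through 11.8 to 18.6 in SZ and from 20.1 through 29.2 to 35.9 in NC. Of these 7 genes, Ccn2 and Dnajb1 meet the naming rule, and the other five were named after their values were seen.

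Banp, a nuclear protein that binds CG-rich promoters, was also singled out after its values were seen. CKD was narrow, from 7.38 through 7.8 to 8.71 FPKM, and SZ ran from 2.45 through 3.19 to 4.65, a difference of -1.06 ± 0.156 (adjusted p = 0.00207). NC spread from 4.18 through 7.39 to 10.7, so that its low end overlapped SZ. Banp stayed called without any 1 SZ or CKD library and without CKD 2, CKD 5 and SZ 3 (adjusted p = 0.00599).

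Of 10 tested glucocorticoid-responsive genes, 3 fell and 0 rose: Zbtb16, Fkbp5 and Sgk1 (median -0.15). The list did not move as a whole, with 5 members above 0, the highest at 0.76, and 5 below. Zbtb16, the zinc finger repressor PLZF, ran from 1.31 through 3 to 6.69 FPKM in CKD, from 0.206 through 0.33 to 0.997 in SZ and from 0.694 through 0.92 to 1.61 in NC. The difference was -1.56 ± 0.231 with no overlap of SZ and CKD. Zbtb16 met the filter only with its levels in CKD, so its p-value is left out. Its call and separation are not independent of the filter. Fkbp5, the cochaperone that dampens the receptor, ran from 13.4 through 20.6 to 30.9 in CKD and from 8.15 through 10.8 to 13.9 in SZ, a difference of -0.89 ± 0.178 (adjusted p = 0.0074).

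Sgk1, a kinase of sodium transport, fell by 0.77 ± 0.205 (adjusted p = 0.024). It had 50.7 to 101 FPKM in NC, 30.4 to 64.3 in CKD and 18.8 to 35.3 in SZ. It lost its call without SZ 1, SZ 4 or SZ 5. Per1 (-0.53, adjusted p = 0.202) did not pass. The 3 falls were also called without CKD 2, CKD 5 and SZ 3, and Zbtb16 and Fkbp5 without any 1 of the 12 libraries.

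Immediate early genes, which answer growth factors and stress within minutes, lay below 0 in 16 of 16, with a median of -1.01, but 3 of 16 were called. Fos fell by 2.14 ± 0.652 (adjusted p = 0.0421). It ran from 14.9 through 59.9 to 83.6 FPKM in CKD, from 2.59 through 9.02 to 23.1 in SZ and from 3.68 through 19.3 to 106 in NC, where NC 6 was the highest. Fos lost its call without CKD 1, CKD 4, CKD 5, CKD 6, SZ 1, SZ 4, SZ 5 or SZ 6.

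Egr2, a zinc finger factor of the same response, fell by 1.60 ± 0.365 (adjusted p = 0.013), with 6.88 through 13.1 to 21.7 FPKM in CKD and 1.88 through 3.47 to 5.43 in SZ. Egr3 fell by 1.04. Fosb (-1.59, adjusted p = 0.0764), Egr1 (-1.31, adjusted p = 0.203) and Atf3 (-1.33, adjusted p = 0.0612) did not pass. The count of 3 was 2 without CKD 2, CKD 5 and SZ 3, 8 under TPM scaling and under plain totals, and 5 after the length correction. It was 5 without NC 2, NC 5 or NC 6, 6 without CKD 3 and 7 without CKD 1 or SZ 3.

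A CArG box, the site that SRF binds in such genes, occurred in 3 of 10 tested members with a promoter entry and in 1.5% of all windows. Of the 3 genes that fell, only Egr2 had a promoter entry, and its window held 1 match 83 bases before the start (chr20:21054442-21054691, minus strand), shown in capitals.
Egr2: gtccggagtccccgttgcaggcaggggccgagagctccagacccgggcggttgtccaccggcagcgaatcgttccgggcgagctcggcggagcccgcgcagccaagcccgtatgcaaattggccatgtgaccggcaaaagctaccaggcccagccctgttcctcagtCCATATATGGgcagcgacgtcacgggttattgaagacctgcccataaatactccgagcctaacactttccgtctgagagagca

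Cebpd and Cebpb, which switch on acute-phase and cytokine genes, fell as well. Cebpd ran from 34.9 through 56.5 to 91.6 FPKM in CKD and from 7.53 through 16.4 to 33.2 in SZ without overlap, beside 5.06 to 25.9 in NC, and fell by 1.69 ± 0.382 (adjusted p = 0.0128). Cebpb fell by 1.3 ± 0.404 (adjusted p = 0.0461), with overlap, and was called in 3 of the 12 leave-one-out fits, being lost without CKD 2, CKD 4, CKD 5, CKD 6, SZ 1, SZ 2, SZ 4, SZ 5 or SZ 6.

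Clock genes moved in both directions. The circadian clock is a loop in which Clock and Arntl switch on Per, Cry and Nr1d genes through E-boxes, and the outputs Dbp, Tef and Hlf act at D-boxes. Of 15 tested members, 8 rose and 1 fell (median 0.44). Per3, a member of the repressor arm, ran from 0.278 through 0.898 to 1.23 FPKM in CKD and from 1.55 through 2.39 to 3.12 in SZ, a rise of 0.85 ± 0.171 (adjusted p = 0.00785) with no overlap.

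Nr1d1, the haem-sensing repressor REV-ERB alpha, rose by 1.01 ± 0.236 (adjusted p = 0.0146), with 4.07 to 14.5 FPKM in CKD and 13.9 to 19.5 in SZ. The output factors Dbp (1.24 ± 0.347, adjusted p = 0.0301), Hlf (1.14 ± 0.29, adjusted p = 0.0209) and Tef (0.82 ± 0.239, adjusted p = 0.0346) rose, and so did Per2 (0.57), Nr1d2 (0.53) and Cry2 (0.44). Dbp ran from 6.75 through 8.82 to 19.9 FPKM in CKD, where CKD 1 was the highest, from 10.4 through 29.2 to 40.1 in SZ and from 6.91 through 15.6 to 29.8 in NC.

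Bhlhe41, a repressor of Clock and Arntl output, was the member that fell, by 1.15 ± 0.232 (adjusted p = 0.0074), from 8.28 through 11.2 to 18.7 FPKM in CKD to 2.87 through 4.24 to 8.06 in SZ, with no overlap. Nfil3, which competes with the output factors for D-boxes and was not on the list, fell by 1.15 ± 0.275 (adjusted p = 0.016), with 4.88 through 10.2 to 17 in CKD and 1.83 through 3.78 to 7.65 in SZ. Of the activators, Arntl (-0.41, adjusted p = 0.238) and Clock (0.44, adjusted p = 0.226) did not pass, and neither did Per1.

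Per3, Nr1d1, Bhlhe41 and Nfil3 stayed called without any 1 of the 12 SZ and CKD libraries, while Dbp, Cry2 and Nr1d2 were each called in 4 of those 12 fits, and Tef and Per2 each in 5. Without CKD 2, CKD 5 and SZ 3 the counts were 2 up and 1 down: Per3 and Bhlhe41 kept adjusted p-values of 0.019 and 0.012, and among the genes that did not pass the differences were 0.80 for Nr1d1 (adjusted p = 0.0548), -1.07 for Nfil3 (0.0548), 0.65 for Tef (0.154) and 1.01 for Dbp (0.123). The count of 8 rises was 4 under TPM scaling and 5 under plain totals, with Cry2 (adjusted p = 0.194), Nr1d2 (0.148), Per2 (0.0937) and Tef (0.0573) not passing under TPM scaling. It was 2 without CKD 5, SZ 2 or SZ 4, 3 without CKD 2 or SZ 6, 4 without CKD 4 or CKD 6 and 5 without CKD 3. The labels give no hour of sampling, so a difference in time of day and the treatment cannot be told apart.

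**Figure D5:**
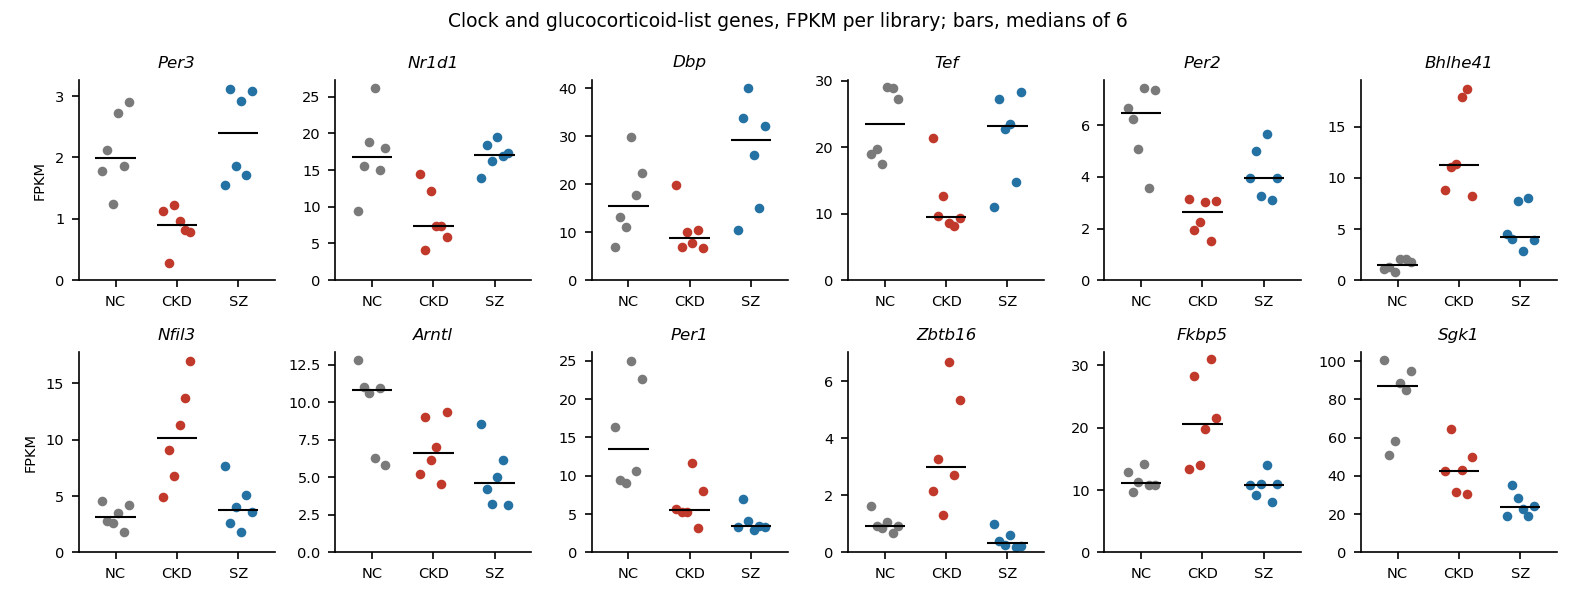
FPKM in each library for 9 clock-related genes and for 3 glucocorticoid-responsive genes, linear axes from 0, with 1 point per library and a bar at the median of 6. Per3 and Bhlhe41 separate SZ from CKD in opposite directions, and Arntl and Per1 overlap.

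An E-box, CACGTG, occurred in 4 of 12 tested clock genes with a promoter entry, in 2 of the 7 that rose, Nr1d1 and Tef, and in 5.59% of all windows. It also occurred in Bhlhe41, which fell. A D-box, TTATGTAA, occurred in 1 of 12, Per2, and in 0.828% of windows. These 3 windows are printed as the rising members with a match: Nr1d1 at its second listed start (chr10:84229455-84229704, minus strand, 191 bases before the start), Tef (chr7:115206577-115206826, plus strand, 198 bases) and Per2 (chr9:99496994-99497243, minus strand, 192 bases), with the match in capitals.
Nr1d1: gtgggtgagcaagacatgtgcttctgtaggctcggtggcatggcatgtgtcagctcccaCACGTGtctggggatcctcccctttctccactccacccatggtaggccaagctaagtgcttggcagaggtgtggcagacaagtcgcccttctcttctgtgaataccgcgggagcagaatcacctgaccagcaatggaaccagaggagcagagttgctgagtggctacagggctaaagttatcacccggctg
Tef: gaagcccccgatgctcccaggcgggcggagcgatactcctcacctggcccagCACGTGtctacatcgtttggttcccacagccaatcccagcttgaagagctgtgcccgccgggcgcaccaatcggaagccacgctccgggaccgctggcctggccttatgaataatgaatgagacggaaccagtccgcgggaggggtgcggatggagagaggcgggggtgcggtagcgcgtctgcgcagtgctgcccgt
Per2: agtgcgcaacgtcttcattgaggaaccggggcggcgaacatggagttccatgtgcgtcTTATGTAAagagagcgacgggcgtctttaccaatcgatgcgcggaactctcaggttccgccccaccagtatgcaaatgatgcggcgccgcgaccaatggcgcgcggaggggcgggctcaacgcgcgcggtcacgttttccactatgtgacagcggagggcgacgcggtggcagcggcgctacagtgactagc

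Of 791 tested genes with a transcription factor family in the deposited table, 20 rose (2.53%) and 41 fell (5.18%), beside 4.16% and 6.82% over all genes. Nuclear receptors were in both sets: Nr1d1, Ppara, Esr1 (0.95), Hnf4a, Thrb (0.72), Nr1h4, Nr1d2 and Esrra rose, and the retinoic acid receptor Rarg (-0.50) and the lipid-sensing receptor Pparg (-0.47) fell. The falling set also held the myeloid factors Spi1 and Irf8 (-0.64), the mesenchymal factors Twist2, Snai1 (-0.95) and Scx (-1.09), the YAP partner Tead2 (-1.15), and the activation factors Fos, Egr2, Egr3, Batf (-0.85) and Batf3 (-1.12). Esr1, the oestrogen receptor alpha, ran from 0.122 through 1.22 to 2.27 FPKM in CKD, 0.827 through 3.12 to 4.55 in SZ and 4.78 through 6.03 to 7.29 in NC. Its call was lost without CKD 2, CKD 4, CKD 5, SZ 1, SZ 2, SZ 4, SZ 5 or SZ 6.

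Collagens and other fibrillar matrix genes fell in 12 of 26 tested with 0 rising (median -0.80), and matricellular and matrix-degrading genes in 12 of 21 with 0 rising (median -0.83). Postn (-1.72), periostin, and Mmp7 (-1.65), matrilysin, led the second list, and both met the filter only with their levels in CKD. Col3a1 fell by 1.36 ± 0.368 (adjusted p = 0.0265) and lost its call without CKD 4, CKD 5, SZ 1 or SZ 4, while Col1a1 had -1.13 ± 0.368 and missed the threshold (adjusted p = 0.0535), but passed under plain totals (0.0379) and TPM scaling (0.0414). Without CKD 2, CKD 5 and SZ 3 the counts were 6 of 26 and 7 of 21, and in the second list 1 gene rose. Single libraries took the first count to 3 without SZ 4, 4 without CKD 5, 5 without CKD 4 and 7 without SZ 1 or SZ 6, and the second to 4 without SZ 4, 5 without SZ 1 and 6 without CKD 4 or CKD 5. The fibroblast and mural cell list had 2 of 12 called lower, Tagln and Dcn, with 11 of 12 below 0 and a median of -0.44. Pdgfra (-0.14) and Pdgfrb (-0.22) did not pass. The summed level of the 14 listed genes was 330 to 756 FPKM in CKD and 177 to 389 in SZ. The count of 2 was 4 under plain totals, 1 without SZ 1 or SZ 4 and 5 without SZ 3.

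Tubular injury genes fell in 6 of 17 tested. Beside Vim, these included Plaur (-0.98), Anxa3 (-0.92), Cd44 (-0.84) and Krt8 (-0.46). Widely used injury markers did not pass: Havcr1 (KIM-1) ran from 155 through 236 to 295 FPKM in CKD and from 92.5 through 183 to 305 in SZ (-0.37 ± 0.273, adjusted p = 0.379), and Lcn2 (NGAL) from 48.4 through 140.0 to 299 and from 22.9 through 50.1 to 125 (-1.27 ± 0.45, adjusted p = 0.0724). Spp1, osteopontin, had -0.99 ± 0.352 (adjusted p = 0.0718). Lcn2 and Spp1 passed under plain totals (adjusted p = 0.048 and 0.0438) and under TPM scaling (0.0409 and 0.0411). Havcr1 was at most 1.13 FPKM in the untreated libraries. Kl, the hormone klotho, had 0.88 ± 0.346 (adjusted p = 0.101), with 8.85 to 53 FPKM in CKD and 21.4 to 74.4 in SZ, and was called without CKD 2, CKD 5 and SZ 3 (adjusted p = 0.012).

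Among targets of p53 and cell death genes, 6 of 20 fell and 1 rose. Phlda3 (-0.99), Cdkn1a (-0.87), Pmaip1 (-0.78) and Bbc3 (-0.61), which act in arrest or apoptosis, fell with the pyroptosis pore Gsdmd (-0.75) and the necroptosis kinase Ripk3 (-0.52). Cdkn1a was called in 3 of the 12 leave-one-out fits, being lost without CKD 2, CKD 3, CKD 4, CKD 5, CKD 6, SZ 1, SZ 2, SZ 4 or SZ 6, and had an adjusted p of 0.164 without CKD 2, CKD 5 and SZ 3. Sesn2, a stress sensor that restrains mTORC1, rose by 0.74 ± 0.13 (adjusted p = 0.00413). The count of 6 was 3 without CKD 2, CKD 5 and SZ 3, and 2 without SZ 4 and 3 without CKD 4, CKD 5 or SZ 2. Of 24 cell cycle genes 5 fell, with Plk1 (-0.67) and Mcm5 (-0.61) in the lead; Mki67 had -0.18 without a call. That count was also 5 without CKD 2, CKD 5 and SZ 3, 9 under TPM scaling and 8 under plain totals. It was 2 without SZ 4, 3 without CKD 5, SZ 1, SZ 2 or SZ 6, 9 without CKD 1 and 14 without SZ 3.

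Ribosomal protein genes lay below 0 in 28 of 28, with a median of -0.56, but 7 were called. Rps3 ran from 176 through 209 to 461 FPKM in CKD, where CKD 5 was the highest, and from 109 through 137 to 228 in SZ, where SZ 3 was the highest, the same libraries whose levels fell most with length. The part of length in these values was tested only by correction: 15 of 28 were called after a length correction, with a median of -0.48, and 15 without CKD 2, CKD 5 and SZ 3, with a median of -0.41. Scaling moved the count of 7 to 27 under TPM and 23 under plain totals, and it was 0 without CKD 5, SZ 1, SZ 2 or SZ 4, 1 without SZ 5, 2 without CKD 2, 3 without SZ 6, 12 without CKD 1, 15 without CKD 4 or CKD 6 and 27 without SZ 3. Of 21 proteasome genes, the immunoproteasome subunits Psmb8 (-0.92) and Psmb10 (-0.82) fell, beside 6.82% called lower over all genes. Psmb8 lost its call without CKD 5, SZ 1, SZ 2, SZ 4, SZ 5 or SZ 6, and Psmb10 without CKD 2, CKD 3, CKD 4, CKD 5, CKD 6, SZ 1, SZ 2, SZ 4, SZ 5 or SZ 6. The count of 2 was 7 under TPM scaling and 4 under plain totals, and 0 without CKD 5, SZ 1, SZ 2, SZ 4 or SZ 5, 1 without NC 1, NC 3, NC 4, NC 5, NC 6, CKD 2, CKD 3, CKD 4, CKD 6 or SZ 6 and 6 without SZ 3.

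Several lists held no call. None of 19 interferon-response, 16 unfolded protein response, 11 hypoxia, 11 endothelial or 11 podocyte genes passed the test, with medians of -0.04, 0.05, 0.04, 0.09 and 0.12. The unfolded protein, hypoxia and endothelial medians turned negative under TPM scaling and plain totals, and the podocyte median under TPM scaling. Without CKD 2, CKD 5 and SZ 3, 2 hypoxia, 1 endothelial and 1 podocyte gene were called higher. Under TPM scaling and under plain totals, 1 podocyte and 1 unfolded protein gene were called lower. With 1 library left out, up to 3 interferon genes were called lower, and 3 podocyte genes were called higher without SZ 3. In oxidation by cytochrome P450 and conjugation, 4 of 21 rose, Gsta2 (1.21), Cyp4a2 (1.06), Cyp2c23 (0.92) and Ephx1 (0.82), and Cyp1b1 fell (-0.73); the 4 were 1 without CKD 2, CKD 5 and SZ 3, and 1 without CKD 3, CKD 4, CKD 5, SZ 2 or SZ 4, 2 without SZ 5 or SZ 6 and 8 without CKD 1. Of 20 antioxidant genes 4 rose, with Cat, catalase, at 1.22 and Gpx3, a secreted glutathione peroxidase, at 1.12, while Nqo1 (-0.22) and Hmox1 (-0.55), targets of Nrf2, did not pass. The antioxidant count was 2 without CKD 2, CKD 5 and SZ 3 and under TPM scaling, and 0 without CKD 4, SZ 1, SZ 4 or SZ 5, 1 without CKD 3, CKD 5, SZ 2 or SZ 6 and 2 without NC 1 or NC 5.

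Length also differed between the called sets. Genes that rose had a median length of 3316 bases and genes that fell 2358, against 2832 over all tested. After the length correction the medians were 2886 and 2672.5, with 808 genes higher and 1162 lower. Of 546 tested unannotated loci, 21 rose (3.85%) and 9 fell (1.65%), and of 433 lncRNAs 14 rose (3.23%) and 9 fell (2.08%), beside 4.16% and 6.82% over all genes. One unannotated locus (chr4:99942058-99942649, mRatBN7.2, minus strand) ran from 2.63 through 7.99 to 15.6 FPKM in CKD and from 0 through 0.208 to 2.98 in SZ, and was at 0 in all NC libraries, a difference of -2.44 ± 0.328. It passed the filter only through its levels in CKD, and its SE includes NC libraries without any spread, so its p-value is left out. The nearest named coding gene, Rpia, was 2781063 bases away. The unnamed entry ENSRNOG00000064142 (chr11:42908366-42909428) lies 1942 bases from Col8a1, on the same strand, and fell by 1.63 ± 0.346, beside -1.12 for Col8a1 itself. Both loci were chosen after their values were seen.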

How the data were processed

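RNA from 18 kidney samples in 3 groups of 6 was sequenced, after Trizol extraction and TruSeq RNA library preparation per the labels' protocols. The authors deposited FPKM values per gene. Per the submitters' processing notes HISAT2 2.0.5 and the build mRatBN7.2 were used; the counter, strand setting and annotation behind the values were not given in the sources used here, so antisense or overlapping genes and close paralogs cannot be told apart. Multiplied by length, 100% of the values were whole multiples of a step specific to the library (tolerance 0.01), which gave 15354358 to 18532375 recovered reads. The divisor behind the FPKM was 1.02 to 1.26 times that total in CKD and 0.969 to 1.12 times in SZ.

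Genes with FPKM of at least 1 in at least 6 libraries were tested on log2(FPKM + 1) with limma 3.58.1 (R 4.3.3; group means of all 3 groups, intensity trend, two-sided, Benjamini-Hochberg over 13851 genes, called under 0.05). The pseudocount of 1 understates changes of low genes. Some genes low in SZ and NC met the filter only with their levels in CKD, so their calls as lower are not independent of the filter. Alternatives were other scalings, filters, pseudocounts and fits, a length correction by lowess, a replicate block and the removal of libraries. The members, the 50 gene lists and the tests were chosen with earlier results of these data known. By rule the text names, among called genes with separated ranges, the 15 largest and 15 smallest differences and the 5 smallest p per direction, up to 2 called genes per list, the 5 most variable genes of SZ and of CKD, and a few kidney genes whatever their values; further list members and other genes were named after their values were seen. Promoter windows are from RefSeq (GRCr8). Some genes that meet the rule are not reported here by name. The fit was run on simulated data with the same spread in every group. That run cannot speak to the unequal spread of the real groups or to the libraries low in long transcripts.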

Additional observations from a re-analysis of the deposited data

Results flagged for a closer look

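Of 393 sets of 6 values (each named gene in each group), 48 held 1 library whose gap to its neighbour took more of the group's range than Dixon's 95% critical value allows. Chance flags about 1 in 20 sets of normally distributed values. The sets here are FPKM on the linear scale, from genes partly chosen for their values, so that rate cannot be set against the 48. The values are FPKM, with the range of the other 5 libraries of the group in brackets, and no explanation was tested. CKD 5 stood out in 14 genes, above the others in each. These were C1qa (184, others 38.6 to 77.7), C1qb (318, others 57.4 to 151), Ca3 (57.3, others 8.61 to 22.9), Cfd (60.9, others 5.48 to 21), ENSRNOG00000064142 (41.8, others 7.11 to 14). Further genes were Fabp4 (67.5, others 8.59 to 20.8), Pdlim4 (94.3, others 22.5 to 39.7), Pkm (114, others 53.1 to 74.2), Pmvk (21.2, others 9.02 to 12.2), Psmb10 (52.2, others 12.5 to 24.2). The rest were Psmb8 (104, others 27.7 to 50.8), Rps3 (461, others 176 to 272), Tagln (251, others 74.2 to 99.4), Trem2 (45.3, others 11.3 to 19.2). SZ 3 stood out in 8 genes. It was above the others in C1qa (52.4, others 17.7 to 30.3), Cfd (13.2, others 1.53 to 4.26), Lcn2 (125, others 22.9 to 53.6), Pkm (78.5, others 38.8 to 49.7), Psmb10 (20.7, others 9.23 to 12.4), Psmb8 (50.3, others 19.3 to 25.9), Rps3 (228, others 109 to 146). It was below the others in Lrp2 (62.2, others 136 to 157).

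CKD 1 stood out in 7 genes, above the others in each. These were Cyp4a2 (498, others 103 to 239), Dbp (19.9, others 6.75 to 10.4), Egf (88.4, others 3.64 to 21.4), Mt-atp8 (206, others 32.8 to 83.4), Slc7a12 (28, others 1.22 to 8.25). Further genes were Slc7a13 (286, others 26.2 to 109), Tef (21.3, others 8.14 to 12.6). NC 2 stood out in 8 genes. It was above the others in Col1a1 (25.1, others 3.94 to 11), Dnajb1 (63.9, others 30.2 to 40.3), Dusp15 (28.1, others 8.21 to 13.7), Hba-a2 (535, others 210.4 to 325), Psmb10 (5.48, others 2.47 to 3.36), Slc34a1 (2105, others 1474 to 1690.0), Tgfb1 (19.2, others 10 to 13.3). It was below the others in Hgd (165, others 236 to 273).

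NC 6 stood out in 3 genes. It was above the others in Egr2 (5.36, others 0.0875 to 0.988), Fos (106, others 3.68 to 37.1). It was below the others in Rps23 (139.6, others 165 to 178). SZ 4 stood out in 3 genes. It was above the others in Bsnd (26.6, others 14.4 to 18.4), the unannotated locus at chr4:99942058-99942649 (2.98, others 0 to 0.659). It was below the others in Dkk3 (1.13, others 2.14 to 2.5). SZ 2 stood out in 2 genes. It was above the others in Fibin (1.65, others 0.54 to 0.87), Per1 (6.93, others 2.97 to 4.14). Single genes stood out, above the others, in NC 3 for Abcb1b (7.15, others 2.82 to 4.22), NC 5 for Pmvk (7.76, others 5.06 to 5.92), CKD 2 for Samsn1 (8.08, others 4.67 to 5.59).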

How the results depend on the processing

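The count of 1521 genes was 554 (143 higher, 411 lower) with only SZ and CKD libraries in the fit and 2830 (1279 higher, 1551 lower) with array weights. Without the low-value filter 338 genes were higher, and with a mean FPKM of at least 5, 593 were lower. TPM scaling gave 289 higher and 1702 lower, and plain library totals 382 and 1752. Removal of 1 library gave 533 to 3058 called genes, 163 to 1468 higher and 370 to 1590 lower; the libraries that moved a total most are named with it in the report, and the count higher was also 371 without CKD 4 and 375 without SZ 5. Pseudocount, intensity trend, voom on recovered reads (1517), totals without the 20 most abundant genes (1784), a length correction (1970) and the removal of CKD 2, CKD 5 and SZ 3 (1478) stayed within 1.5 times of the total.

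The signs of some values that were not called turned. Umod became 0.10, 0.12 and 0.03 without CKD 1, CKD 3 and CKD 4, and 0.01 and 0.07 without SZ 1 and SZ 4; its range with 1 library removed was -0.27 to 0.12. Tff3 became -0.013 with array weights, -0.33 without CKD 2, CKD 5 and SZ 3, -0.17 without SZ 3 and -0.03 without SZ 6, and reached 0.89 without SZ 4. The endothelium list median became -0.054 under TPM scaling and -0.036 under plain totals, and the median of the TGF-beta and BMP list became 0.0044 with a mean FPKM of at least 5. The cause was not tested. For named genes, 1997 of the values with 1 library removed kept direction and side of the threshold, 341 fell short of it and 7 turned.

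With the replicate number as a block, 1195 genes were called (425 higher, 770 lower), 1129 of them among the 1521. The labels give no pairing: correlations of same-numbered SZ and CKD deviations were -0.052, 0.037, -0.36, -0.025, -0.22 and -0.024, and 0 of 6 SZ libraries correlated best with their own number.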

Other observations

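Some genes spread widely inside a treated group and were not called between groups. Within SZ the most variable were Slc7a13 and Slc7a12, amino acid transporters, Slco1a6, an organic anion transporter, Hnmt, which methylates histamine, and Tff3, a trefoil peptide. Slc7a13 had 18.4 FPKM in SZ 4 and 82.6 in SZ 2, against 301 in SZ 1 and 553 in SZ 3. Tff3 had 28.3 in SZ 4 and 99.2 in SZ 2, against 1155 in SZ 3. Hnmt had 3.93 in SZ 4 and 106 in SZ 3. The untreated libraries spread in these genes too: Slc7a13 had 131 FPKM in NC 2 and 2032 in NC 5, Hnmt 19.7 and 235, and Tff3 74.8 and 1425. Library SZ 4 was the lowest of SZ in each of these 5 genes, and NC 2 the lowest of NC.

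Within CKD the most variable were Ephx2, soluble epoxide hydrolase, Slpi, a secreted protease inhibitor, Akr1c1, Ugt2b35 and Mir22. Ephx2 had 1.29 FPKM in CKD 4, 1.58 in CKD 5 and 3.57 in SZ 3, whereas the other CKD and SZ libraries had at least 37.1 and the NC libraries 51.1 to 121. Slpi had 0.409 FPKM in CKD 1, 3.07 in CKD 4 and 123.5 in CKD 5.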
